A study of Mus musculus with 8 samples.

Results

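The genes described here encode the proteins of the cytosolic ribosome. Members were the rows whose symbol starts with Rpl or Rps followed by a digit, together with Rplp0, Rplp1, Rplp2 and Rpsa. Symbols that start with Rps6k, end in l1 or contain -ps were dropped. This took 83 of the 10639 genes in the table, 47 with large-subunit and 36 with small-subunit symbols. Of these, 76 are core ribosomal protein genes, 45 of the large and 31 of the small subunit. The other members are the paralogues Rps27l, Rps27rt and Rpl36al, the processed pseudogenes Rpl6l, Rps3a2 and Rps3a3, and Rps19bp1, which encodes a protein that binds Rps19 and not a ribosomal protein. The small-subunit genes Fau and Rack1 carry other symbols and are treated below as partners.

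The cells were RAW264.7, a mouse macrophage-like line transformed with Abelson leukaemia virus, labelled wild type in all groups. Bulk RNA was sequenced from 4 groups of 2 libraries. One group received lipopolysaccharide (LPS, a bacterial cell wall component that activates Toll-like receptor signalling) at 50 ng/mL for 12 h. Another received antibodies against the scavenger receptor CD36 at a dilution of 1 in 100 for 12 h, another received LPS and these antibodies together for 12 h with no doses in its labels, and the last was untreated. No group received a control antibody, so an effect of binding CD36 and one of adding antibody cannot be told apart. The labels do not say whether the 2 libraries of a group came from separate cultures, and a p-value here covers no more than the spread seen between the libraries sequenced. All 11 macrophage markers examined were in the table, among them Adgre1, Cd68, Csf1r and Itgam, and no fibroblast, epithelial or endothelial marker was. With LPS 4 of the 11 rose and 4 fell in limma, such as Adgre1, higher by 2.59 ± 0.15 on the log2(FPKM + 1) scale (adjusted p = 1.66e-05), and Fcgr3, lower at -1.84 ± 0.11 (adjusted p = 1.66e-05). Of the markers of other blood cells, 2 of 5 for B cells, 1 of 5 for T and NK cells, 1 of 6 for granulocytes and 2 of 5 for dendritic cells were in the table. Cd79b rose with LPS, with 0.774 and 1.17 FPKM against 0.0753 and 0.107 FPKM in untreated cells. Lck rose, with 4.21 and 4.32 FPKM against 2.0 and 1.89 FPKM in untreated cells, and Fscn1 rose, with 1.54 and 1.69 FPKM against 0.0537 and 0.0741 FPKM in untreated cells (limma adjusted p = 0.00443, 0.000266 and 2.85e-05 in this order). Their part in the results below was not tested. In bulk samples fewer cells of a type and less RNA per cell cannot be told apart.

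A ribosome holds a single copy of nearly every one of these proteins, so cells make them in matched amounts. Their mRNAs are among the most abundant of a growing cell, and most start with a cytidine followed by a run of pyrimidines, the terminal oligopyrimidine (TOP) motif, through which mTOR and the RNA-binding protein Larp1 control how well the mRNA is translated. In macrophages, LPS activates mTOR and changes the translation of many mRNAs, and ribosomal proteins have further roles, such as the binding of Mdm2 by Rpl5 and Rpl11.

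The start of the transcript is where members share sequence that the symbol rule did not use. RefSeq promoters (GRCm38.p6, 250 bases before to 50 bases after an annotated start) were matched to 60 of the 83 members by symbol. The lines below show the 20 bases on either side of the start for core members with a pyrimidine run at the start, the 4 with the largest and the 4 with the smallest difference between LPS and untreated cells. Capitals mark the pyrimidine run, which reached within 5 bases of the start. In Rpl10a the run ended before the annotated start, and in the other members shown it crossed the start.
Rpl35a, chr16:33056462-33056501, plus strand: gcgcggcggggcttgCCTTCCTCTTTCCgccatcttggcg
Rps27, chr3:90213629-90213668, minus strand: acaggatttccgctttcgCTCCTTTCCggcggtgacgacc
Rps18, chr17:33955646-33955685, minus strand: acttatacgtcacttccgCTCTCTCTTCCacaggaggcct
Rps21, chr2:180257359-180257398, plus strand: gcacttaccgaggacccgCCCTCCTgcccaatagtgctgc
Rpl14, chr9:120571497-120571536, plus strand: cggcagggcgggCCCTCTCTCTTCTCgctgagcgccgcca
Rpl10a, chr17:28328451-28328490, plus strand: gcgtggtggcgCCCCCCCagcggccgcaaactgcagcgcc
Rpl28, chr7:4792945-4792984, plus strand: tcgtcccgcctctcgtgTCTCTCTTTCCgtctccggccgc
Rpl7a, chr2:26910787-26910826, plus strand: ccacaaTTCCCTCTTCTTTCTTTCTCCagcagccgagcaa

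A run of at least 7 C or T on the sense strand that reached within 5 bases of an annotated start was present in 27 of the 60 members (45%), against 15.7% of 26965 other genes with a RefSeq promoter. A wider definition, at least 8 within 25 bases, gave 58.3% of members and 27% of other genes. The narrower definition was chosen after the values of the wider one were seen, so that the run falls inside the sequence shown. CTTTC or CTTTT on the sense strand within 25 bases of the start was found in 38.3% of members and 13.2% of other genes. Within the whole 300 bases and on either strand, CCGGAAG, the core bound by ETS factors such as GABP, was in 41.7% of members and 9.86% of other genes. ATGGCGG, which can overlap the YY1 site and the start codon, was in 16.7% and 4.67%, and TATAAA in 10% and 15.7%. These matches describe letters and do not show that a factor binds. The runs stood at the starts of Rpl35a and Rpl7a alike, which had the largest and the smallest difference with LPS among all members.

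The core ribosomal protein genes had a median of 402 FPKM over the 8 libraries (sequenced fragments divided by transcript length and by the library's total), against 8.05 for all genes. They ran from 3.16 FPKM for Rps10 to 2111 FPKM for Rplp1. The highest means were those of Rplp1 of the P-stalk that recruits translation factors, Rps3a1 at 1656, Rps15 at 1522, Rpl4 at 1351 and Rpl8 at 1234 FPKM. Over all 83 members, paralogues and pseudogenes included, the lowest were those of Rpl36al at 1.45, Rpl6l at 1.92, Rps10 at 3.16, Rps27rt at 3.86 and Rpl29 at 7.14 FPKM. At least 1 other transcript of GENCODE M21 was near-identical (at least 95% identity over at least 80% of the coding sequence) for 78 of the 83 members, with a median of 5 and up to 57 for Rpl21. How reads with several matches were counted is not given in the sources used here, so the level of each of these members is uncertain. The rank correlation of mean level with the number of copies over the 76 core members was -0.05, as a description.

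Summed over all members, ribosomal protein genes held a larger share of the FPKM in both LPS libraries and both combination libraries than in either untreated library. The share was 12.6% and 11.8% with LPS, 7.71% and 13.0% with anti-CD36, 13.8% and 12.3% with the combination, and 9.50% and 7.67% in untreated cells. The anti-CD36 replicates were far apart, with replicate 1 between the untreated libraries and replicate 2 above both LPS libraries. Mitochondrially encoded genes held 4.10% and 3.94% with LPS, 15.7% and 6.59% with anti-CD36, 3.28% and 4.47% with the combination, and 4.70% and 6.62% in untreated cells. With those genes left out of the total, the members' share was 13.2% and 12.3% with LPS, 9.15% and 14.0% with anti-CD36, 14.3% and 12.9% with the combination, and 9.97% and 8.21% in untreated cells. The anti-CD36 replicates stayed apart, and the part of the mitochondrial share in that gap was not tested further.

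**Figure D1:**
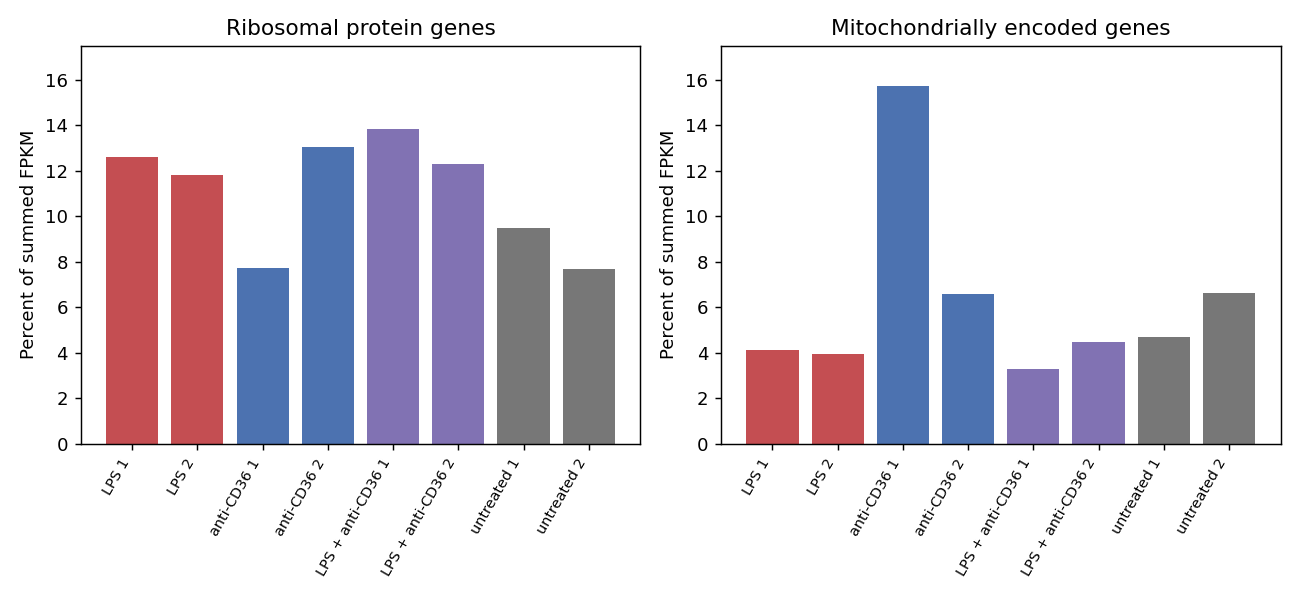
Percent of the summed FPKM held by the 83 ribosomal protein genes (left) and by mitochondrially encoded genes (right), 1 bar per library. The 4 libraries with LPS hold 11.8% to 13.8% in the left panel, untreated libraries 9.50% and 7.67%, and the anti-CD36 libraries 7.71% and 13.0%; anti-CD36 replicate 1 has the highest mitochondrial share, 15.7%.

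With LPS, ribosomal protein mRNAs were higher as a group. At a Benjamini-Hochberg adjusted p under 0.05 in limma, 38 of 83 members rose and 0 fell, where 17% of all 10289 genes tested rose and 37.5% fell. The median difference of the members was 0.80 on the log2(FPKM + 1) scale, against -0.19 for all genes, and all 83 differences were above 0. Under quantile normalization the median was 0.44, and 74 differences were above 0. Both LPS libraries lay above both untreated libraries for 77 members, which holds for 30.6% of all genes. Of the large-subunit symbols 21 of 47 rose, with a median of 0.67, and of the small-subunit symbols 17 of 36, with a median of 0.86. The count rested on single libraries, and the share of all genes called moved in the same direction in each of these fits. The members' median was 0.70 without LPS replicate 1 and 0.83 without LPS replicate 2. It was 0.95 without untreated replicate 1 and 0.57 without untreated replicate 2. For all genes it was -0.17, -0.22, -0.20 and -0.19 in this order. Leaving out an anti-CD36 or a combination library changed the count through the shared estimate of spread.

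The largest difference was that of Rpl35a, a large-subunit protein whose human gene is mutated in Diamond-Blackfan anaemia. It had 43.2 and 37.4 FPKM with LPS, 6.19 and 31.3 with anti-CD36, 36.6 and 17.7 with the combination, and 10.6 and 6.24 in untreated cells. Both LPS libraries were above all others, and the difference was 2.17 ± 0.65 (SE; limma adjusted p = 0.0245, n = 2 each). This call was lost without LPS replicate 1, LPS replicate 2 or untreated replicate 2. Rps29, a small zinc-binding protein of the small subunit, had 68.4 and 70.2 FPKM with LPS, 24.9 and 71.0 with anti-CD36, 78.7 and 47.4 with the combination, and 25.9 and 16.4 in untreated cells. Its LPS and untreated libraries did not overlap, and the difference was 1.70 ± 0.46 (adjusted p = 0.0167), a call lost without the same libraries. Rpl39, which lines the exit tunnel of the large subunit, had 77.1 and 84.1 FPKM with LPS, 27.7 and 70.3 with anti-CD36, 88.5 and 63.7 with the combination, and 28.3 and 22.1 in untreated cells. The LPS libraries were again clear of the untreated ones, by 1.65 ± 0.39 (adjusted p = 0.00869), a call lost without LPS replicate 2 or untreated replicate 2. Rps28, of the small subunit, differed by 1.50 ± 0.45 (adjusted p = 0.0235), and the pseudogene row Rps3a2, whose reads may be those of its parent gene, by 1.72 ± 0.42 (adjusted p = 0.0106).

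Large differences did not always pass. Rplp1 had 3034 and 2711 FPKM with LPS, 543 and 2696 with anti-CD36, 3544 and 2381 with the combination, and 1301 and 683 in untreated cells. Its LPS libraries were above both untreated libraries, but the difference of 1.60 ± 0.69 had an adjusted p of 0.0818. Rps19, another gene mutated in human Diamond-Blackfan anaemia, had 211 and 191 FPKM with LPS, 35.2 and 214 with anti-CD36, 225 and 144 with the combination, and 91.6 and 48.9 in untreated cells. The difference was 1.57 ± 0.73 with an adjusted p of 0.106. In both genes anti-CD36 replicate 1 lay below both untreated libraries and replicate 2 close to the LPS libraries, a gap that enters the shared spread. Of the 25 members with a difference of at least 1, 18 passed and 7 did not.

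**Figure D2:**
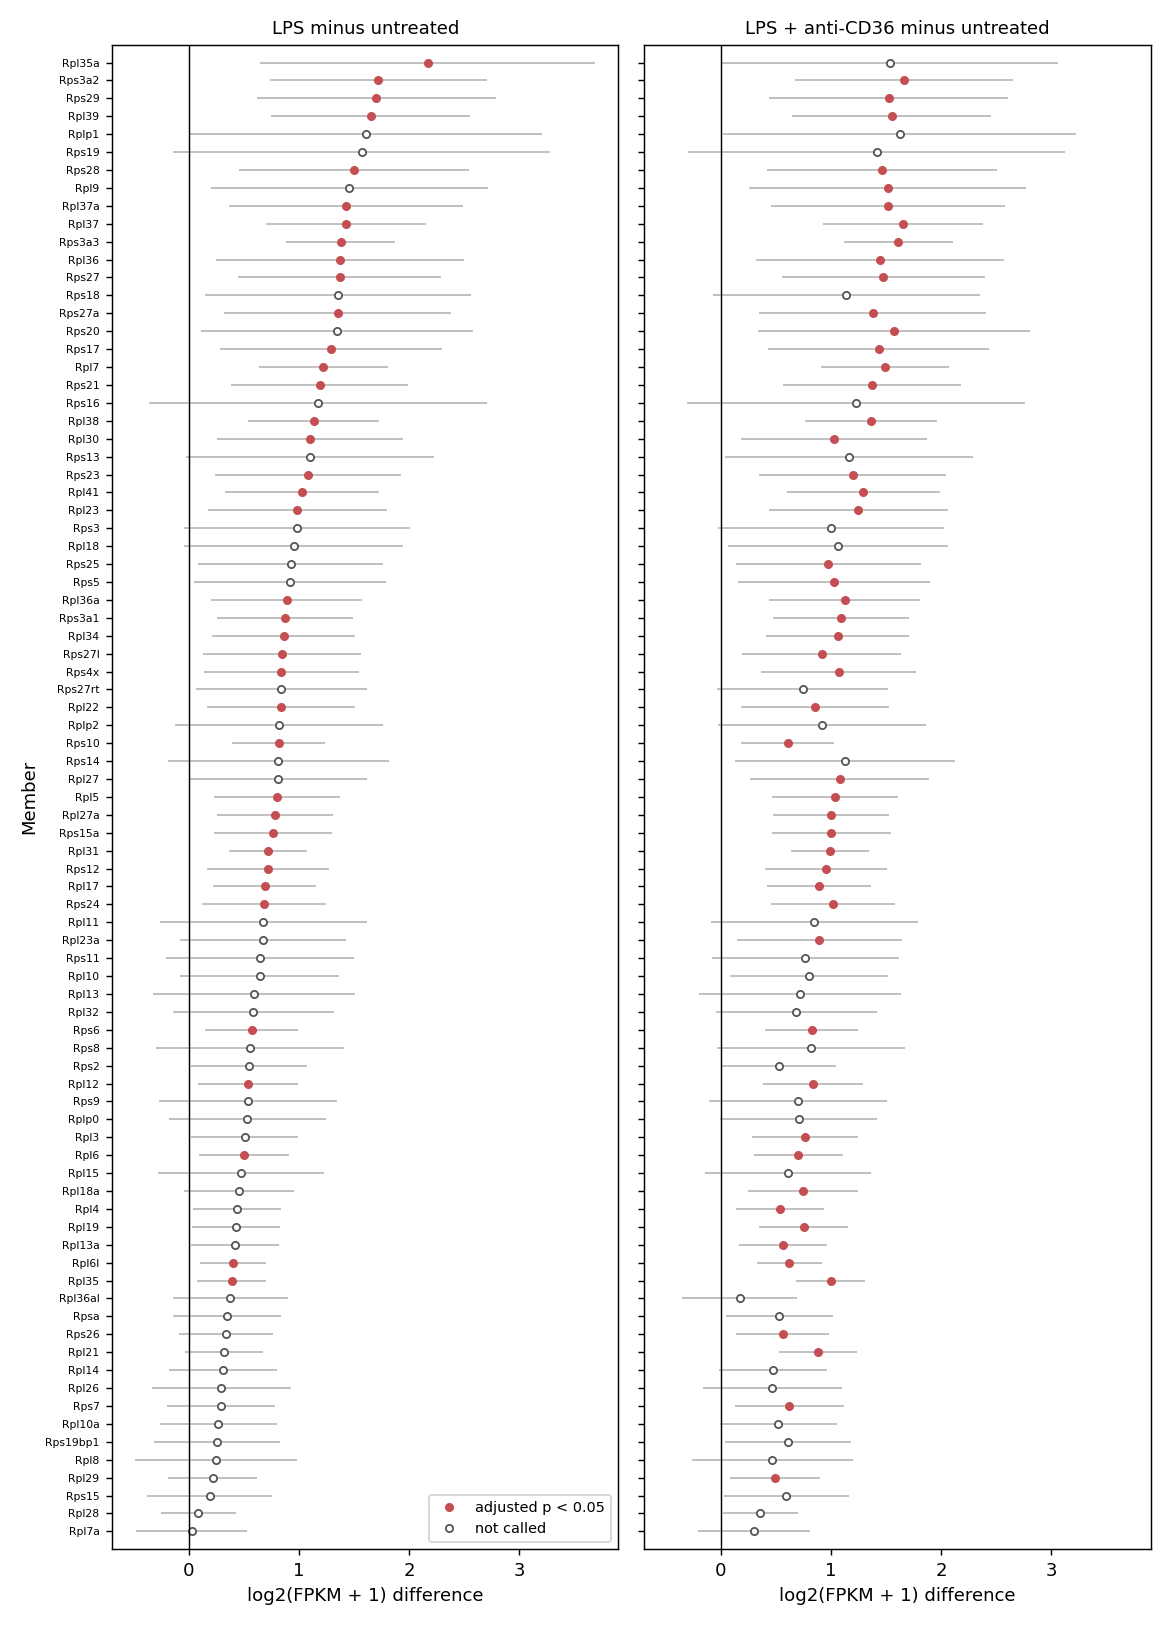
Difference in log2(FPKM + 1) for each of the 83 members, LPS minus untreated on the left and LPS + anti-CD36 minus untreated on the right, in order of the left panel. Points are estimates, filled where the limma adjusted p is under 0.05, and lines are 95% intervals; 38 are filled on the left and 52 on the right, and all points lie above 0, as 74 of 83 do in each comparison under quantile normalization.

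At the other end of the list, LPS and untreated cells were close. Rpl7a of the large subunit had 907 and 861 FPKM with LPS, 777 and 1107 with anti-CD36, 1065 and 1075 with the combination, and 953 and 790.4 in untreated cells. The groups overlapped, and the difference was 0.03 ± 0.22 (adjusted p = 0.927). Rpl28, also of the large subunit, had 362 and 337 FPKM with LPS, 425 and 387 with anti-CD36, 432 and 413 with the combination, and 351 and 309.7 in untreated cells, with a difference of 0.09 ± 0.15 (adjusted p = 0.64). The next smallest differences were 0.19 ± 0.24 for Rps15, 0.22 ± 0.17 for Rpl29, 0.25 ± 0.31 for Rpl8 and 0.25 ± 0.25 for Rps19bp1, none called. The 95% interval of the difference was -0.48 to 0.53 for Rpl7a and -0.26 to 0.43 for Rpl28.

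Members with well-studied roles fell on both sides of the threshold. The count of called members rested on single libraries, and which of the calls below were lost is not listed. Under quantile normalization 20 of the 38 calls with LPS were kept. Rps6, the target of S6 kinase downstream of mTOR, had 1184 and 1007 FPKM with LPS, 1059 and 1219 with anti-CD36, 1354 and 1249 with the combination, and 749 and 719.9 in untreated cells, and rose by 0.57 ± 0.18 with LPS (adjusted p = 0.0299). Rpl5, which with Rpl11 and 5S ribosomal RNA binds Mdm2, rose by 0.80 ± 0.24 (adjusted p = 0.0268), while Rpl11 differed by 0.68 ± 0.40 (adjusted p = 0.188). Rps27a, made as a fusion with ubiquitin, rose by 1.35 ± 0.44 (adjusted p = 0.0337). Rpl37 rose by 1.43 ± 0.31 (adjusted p = 0.00632), Rpl36a by 0.89 ± 0.29 (adjusted p = 0.0348) and Rps27 by 1.37 ± 0.39 (adjusted p = 0.0208). The paralogue Rps27l, a p53 target in human cells, rose by 0.85 ± 0.31 (adjusted p = 0.0496), and the paralogue Rpl36al differed by 0.38 ± 0.22 (adjusted p = 0.183). Rplp0 differed by 0.53 ± 0.31, Rplp2 by 0.82 ± 0.40, Rpsa by 0.35 ± 0.21, Rps3 by 0.98 ± 0.44 and Rpl13a, part of the human GAIT complex that represses translation, by 0.42 ± 0.17, and none of these passed.

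The difference with LPS was larger in members that encode shorter proteins. Among the 76 core members it had a Spearman rho of -0.553 and a Pearson r of -0.486 with coding length, as a description over genes of the same libraries. The 25 with a coding sequence of 75 to 399 bases had a median difference of 1.10, and 20 of them were called. For 405 to 564 bases the median was 0.78, with 8 of 25 called, and for 576 to 1257 bases it was 0.53, with 6 of 26 called. All these calls were higher, where 17% of all genes tested rose with LPS, and genes of other families were not split by coding length. With the mRNA length of the principal transcript rho was -0.362, and with the length of all exons joined it was -0.03. The gap between the anti-CD36 replicates also had a rho of -0.333 with coding length. Over all 10034 tested genes with a known length, differences also followed the length of all exons joined. There rho was -0.164 with LPS, -0.445 with anti-CD36, -0.318 with the combination and -0.476 for the combination against LPS. That length had a median of 1734 bases in members and 4335.5 in all genes. The part of length in the members' differences was not tested.

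With anti-CD36 alone, 4 members rose and 0 fell, where 3.04% of all genes rose and 10.6% fell. These were Rpl35, Rpl21, Rpl31 and the pseudogene row Rps3a3. Rpl35, at the exit of the large subunit's tunnel, had 83.8 and 88.7 FPKM with LPS, 112 and 90.9 with anti-CD36, 128 and 136 with the combination, and 65.0 and 66.1 in untreated cells. Both anti-CD36 libraries were above both untreated ones, by 0.61 ± 0.13 (limma adjusted p = 0.0283, n = 2 each). Rpl31, its neighbour at the tunnel exit, had 369 and 363 FPKM with LPS, 339 and 373 with anti-CD36, 455 and 425 with the combination, and 243 and 202 in untreated cells, a difference of 0.68 ± 0.15 (adjusted p = 0.0298). Rpl21 differed by 0.56 ± 0.15 (adjusted p = 0.0485) and Rps3a3 by 1.22 ± 0.21 (adjusted p = 0.0173). Over all members the median difference was 0.43, against -0.08 for all genes and 0.13 for the fifth of genes with the shortest joined exons. The anti-CD36 libraries lay above both untreated ones for 24 members, against 16.7% of all genes. These values depended on the library. Without anti-CD36 replicate 1 the median was 0.83, against -0.04 for all genes. Without anti-CD36 replicate 2 it was -0.05, against -0.14 for all genes. It was 0.60 without untreated replicate 1 and 0.20 without untreated replicate 2, against -0.07 and -0.09 for all genes. The count of called members moved with every library left out, in the same direction as the share of all genes called.

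The replicates of the anti-CD36 group differed in most members. Replicate 2 was higher than replicate 1 in 77 of 83, with a median gap of 0.88 on the log2(FPKM + 1) scale, against 0.05 over all genes. The median gap of replicate 2 over replicate 1 was -0.13 with LPS, -0.22 with the combination and -0.42 in untreated cells. Replicate 2 of anti-CD36 lay above both untreated libraries in 81 members, while replicate 1 lay below both in 24, between them in 35 and above both in 24. These positions were not counted over all genes, so whether members differ from other genes in them cannot be told. The 6 members higher in replicate 1 were Rpl21, Rpl28, Rpl35, Rpl4, Rpl6l and Rps26. Rps26, near the mRNA exit of the small subunit and named after its values were seen, had 499 and 475 FPKM with LPS, 642 and 469 with anti-CD36, 565 and 571 with the combination, and 392 and 378 in untreated cells. It was highest in anti-CD36 replicate 1, the library in which most members were low.

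**Figure D3:**
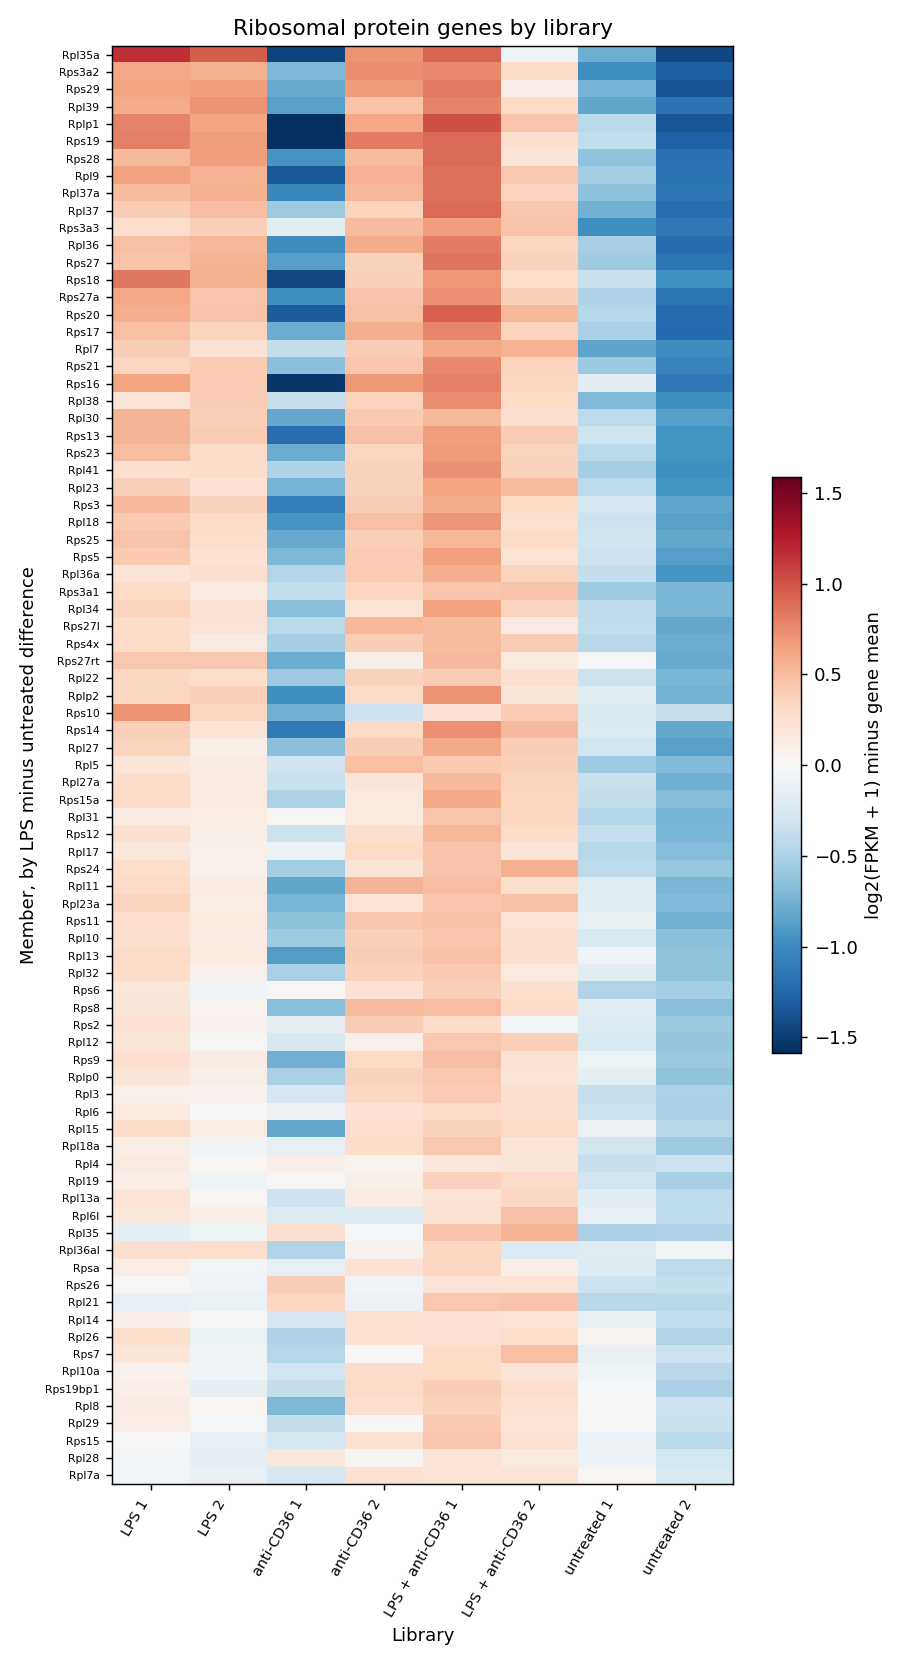
log2(FPKM + 1) of each of the 83 members minus its mean over the 8 libraries, with libraries in columns and members in rows in order of the LPS minus untreated difference; values beyond the colour scale take its end colour. The untreated columns and anti-CD36 replicate 1 are mostly low and the other 5 columns mostly high.

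Members with a large difference with LPS were also those with a large gap between the anti-CD36 replicates, although these 2 quantities share no library. Over the 83 members Pearson's r was 0.749 and Spearman's rho 0.753, against 0.246 and 0.275 over all 10289 genes tested. The gap between the untreated replicates ran the opposite way, with r = -0.835 over the members and -0.645 over all genes. These are descriptions over genes measured in common libraries, which are not independent of each other. What set the replicates apart was not tested.

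**Figure D4:**
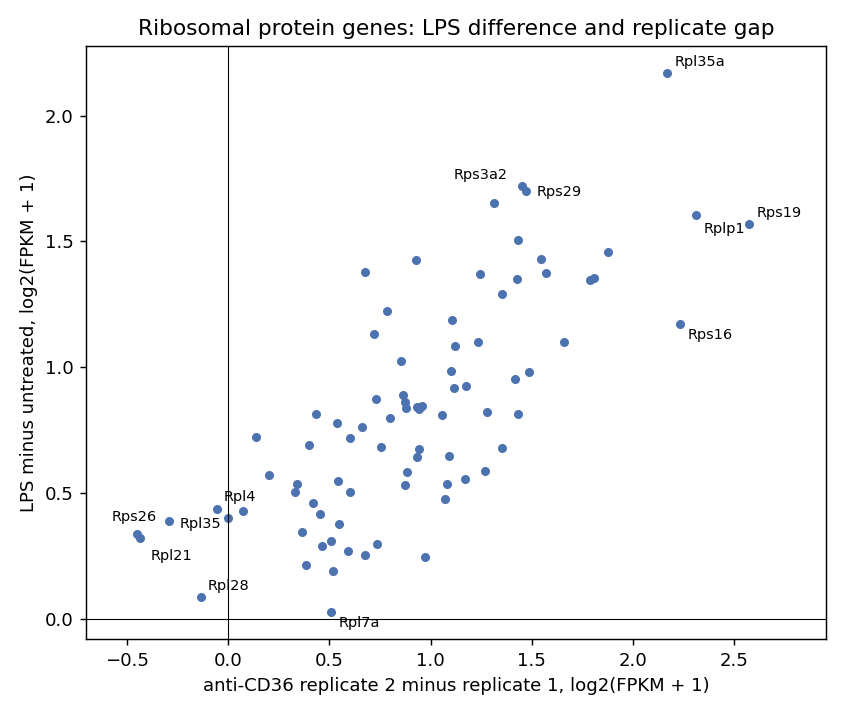
LPS minus untreated difference (vertical) against the gap of anti-CD36 replicate 2 over replicate 1 (horizontal), both in log2(FPKM + 1), 1 point per member. Points rise together (r = 0.749, n = 83), and the 6 members left of 0 on the horizontal axis have LPS differences of at most 0.44.

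With LPS and anti-CD36 together, 52 members rose over untreated cells and 0 fell, where 17.3% of all genes rose and 41.8% fell. The median difference was 0.97, against -0.23 for all genes and 0.20 for the fifth of genes with the shortest joined exons. All 83 member differences were above 0. Under quantile normalization the median was 0.54, and 74 were above 0. Both combination libraries were above both untreated ones for 82 members, against 29.2% of all genes. Rpl37 had 113 and 122 FPKM with LPS, 57.7 and 111 with anti-CD36, 162 and 117 with the combination, and 50.4 and 36.8 in untreated cells, and its difference was 1.65 ± 0.31 (limma adjusted p = 0.00285, n = 2 each). Rps3a3 rose by 1.61 ± 0.21 (adjusted p = 0.000524) and Rpl35 by 1.00 ± 0.13 (adjusted p = 0.00057). Rpl35a differed by 1.53 ± 0.65 and did not pass (adjusted p = 0.0764). The smallest differences were 0.17 ± 0.22 for Rpl36al and 0.30 ± 0.22 for Rpl7a. The count depended on the library left out, and was not set beside the share of all genes called in those fits. Under quantile normalization 28 members were called, and with median-ratio size factors 79. In these fits 55.3% and 57.2% of all genes were called in either direction, against 59.1% in the main fit.

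Against LPS alone, the combination gave no called member in either direction, where 0.36% of all genes rose and 1.42% fell in limma; 2 members had an unadjusted p under 0.05. The median difference was 0.19, against -0.02 for all genes and 0.13 for the fifth of genes with the shortest joined exons. Rpl35 came closest, with 128 and 136 FPKM in the combination against 83.8 and 88.7 with LPS, a difference of 0.61 ± 0.13 (adjusted p = 0.0689). Rpl21 differed by 0.56 ± 0.15 (adjusted p = 0.104) and Rpl35a by -0.63 ± 0.65 (adjusted p = 0.651). With either anti-CD36 library left out, some members were called in this comparison, through the shared estimate of spread. The share of all genes called in those fits was not set beside this. Against anti-CD36 alone, the combination was higher for 5 members, Rps10, Rpl6l, Rps7, Rpl35 and Rpl29, where 15.4% of all genes rose and 31.7% fell. Some of these were low, with means over the 8 libraries of 1.92 FPKM for the pseudogene row Rpl6l, 3.16 for Rps10 and 7.14 for Rpl29. Over all members the median difference was 0.53, against -0.15 for all genes, but 0.07 without anti-CD36 replicate 1 and 1.00 without replicate 2. Rps10, a small-subunit protein at the head, had 5.46 and 4.0 FPKM with LPS, 1.34 and 2.16 with anti-CD36, 3.62 and 4.24 with the combination, and 2.39 and 2.08 in untreated cells, a difference of the combination over anti-CD36 of 0.86 ± 0.18 (adjusted p = 0.00669). The count of members called against anti-CD36 depended on the library left out, and was not set beside the share of all genes in those fits. In the test of whether the effect of LPS differed with the antibodies (the interaction), 0 members were called by limma, against 0.00972% of all genes, and 1 had an unadjusted p under 0.05. The median was -0.23, against 0.06 for all genes, and its sign rested on single libraries. It was -0.67 without anti-CD36 replicate 1, 0.18 without anti-CD36 replicate 2 and -0.04 without untreated replicate 2.

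**Figure D5:**
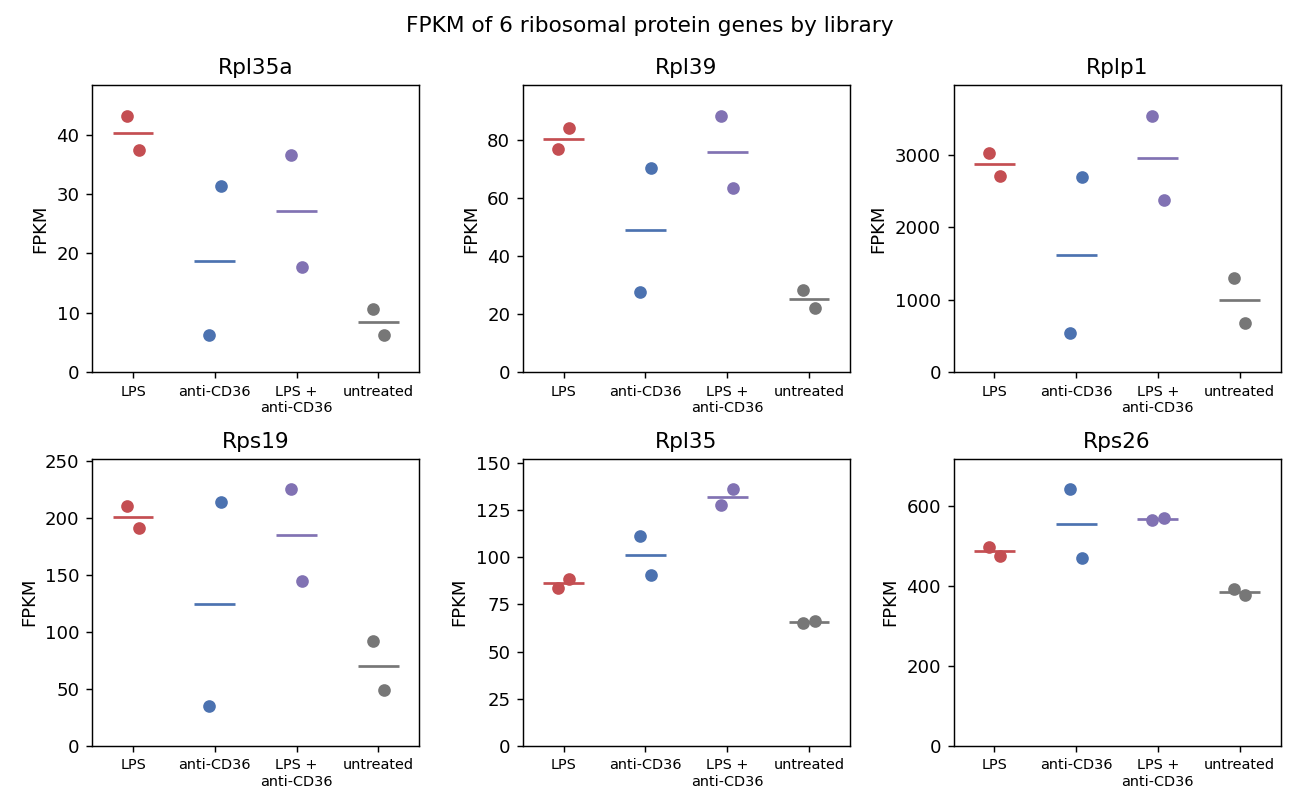
FPKM of 6 members in each library (points; horizontal lines are group means, n = 2), with a vertical axis that starts at 0 and differs between panels. Rpl35a, Rpl39, Rplp1 and Rps19 have widely separated anti-CD36 replicates, while Rpl35 and Rps26 are highest in anti-CD36 replicate 1 within that group.

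Partner genes were taken from lists of the same pathways, and their counts stand beside the 17% of all genes that rose and the 37.5% that fell with LPS, with a median of -0.19. Of 19 other TOP mRNAs or translation partners tested, 5 rose and 1 fell, with a median of 0.28. Eif3e, a subunit of initiation factor eIF3, rose by 0.90 ± 0.14 (limma adjusted p = 0.00124) and Eif4b, which assists the eIF4A helicase, fell by 0.83 (adjusted p = 0.00157). Fau, which yields a small-subunit protein, had 962 and 883 FPKM with LPS, 524 and 1042 with anti-CD36, 1182 and 882 with the combination, and 621 and 433 in untreated cells, a difference of 0.83 ± 0.34 (adjusted p = 0.0759). Rack1, a scaffold on the small subunit, differed by 0.28 ± 0.24, Eef1a1 by 0.26 ± 0.23 and Eef2 by -0.17 ± 0.19, none called. Tpt1 rose by 0.49 ± 0.17 (adjusted p = 0.0457), a call lost on leaving out any single LPS, combination or untreated library or under quantile normalization. Of 8 hosts of small nucleolar RNAs 6 rose and 0 fell, with a median of 0.93, such as Snhg6 by 1.20 ± 0.19 (adjusted p = 0.00162).

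Of 40 ribosome biogenesis genes 8 rose and 5 fell, with a median of 0.06. Riok3, a kinase of small-subunit maturation, rose by 0.92 ± 0.12 (adjusted p = 0.000691), and Nol6 fell by 0.92 (adjusted p = 0.000458). Of 21 genes of RNA polymerases I and III and the Myc network 2 rose and 12 fell, with a median of -0.65. Myc, a transcription factor that drives ribosome production, had 3.84 and 5.78 FPKM with LPS, 0.0768 and 0.0257 with anti-CD36, 2.36 and 1.91 with the combination, and 0.132 and 0.0719 in untreated cells, a difference of 2.38 ± 0.16 with LPS (adjusted p = 3.31e-05). Both LPS libraries were above all others, and the combination was below LPS by 0.87 (adjusted p = 0.0489), a call lost on leaving out any single LPS, combination or untreated library. Ubtf, an activator of RNA polymerase I, fell by 1.31 (adjusted p = 0.000126). Of 20 genes of mTOR signalling and the Larp family 0 rose and 9 fell, against 37.5% of all genes, with a median of -0.39. Larp1, the TOP mRNA binding protein, had 39.0 and 42.1 FPKM with LPS, 57.0 and 40.7 with anti-CD36, 38.5 and 38.6 with the combination, and 70.0 and 76.7 in untreated cells, and fell by 0.84 (adjusted p = 0.00382). Deptor, an inhibitor of mTOR, fell by 1.57 (adjusted p = 3.8e-05). Of 18 genes of ribosomal protein binding and quality control 5 rose and 4 fell; Mdm2 rose by 1.07 ± 0.18 (adjusted p = 0.00184) and Trp53 fell by 1.05 (adjusted p = 0.000485). With anti-CD36 alone, where 3.04% of all genes rose and 10.6% fell, 5 of the 19 TOP and translation partners rose and 0 fell, 6 of 40 biogenesis genes rose and 1 fell, and 0 of 20 mTOR and Larp genes rose and 3 fell. With the combination, where 17.3% of all genes rose and 41.8% fell, 7 of the 19 partners rose and 2 fell, 13 of 40 biogenesis genes rose and 4 fell, and 0 of 20 mTOR and Larp genes rose and 11 fell.

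Of 79 Mrpl and Mrps genes 13 rose and 11 fell with LPS, against 17% and 37.5% of all genes, with a median of -0.01, and Mrpl52 had the largest called difference, 1.86 ± 0.26 (limma adjusted p = 0.000769). Whether these mitochondrial ribosomal genes differ from the cytosolic ones was not tested. Of 53 ribosomal protein pseudogene symbols tested 21 rose and 0 fell, with a median of 0.48, and their reads may be those of the members. Genes outside the rule were ranked by how like the members' mean profile their log2(FPKM + 1) was. Symbols with -ps, other Rpl and Rps symbols and symbols of Gm with a number were left out of this ranking. The most alike were Cox7b (r = 0.9986), Tmsb4x (0.9964), Eif3i (0.995), Ndufs4 (0.9941) and Eloc (0.9939), as a description over 8 libraries.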

How the data were processed

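Expression in 8 libraries, 2 per group, came as a single table that the authors deposited in FPKM (fragments per kilobase, scaled to library total); groups follow the labels alone. HISAT2 2.0.5 is listed in the submitters' processing notes with builds hg38 and mm10. Which counter, annotation and strand setting were used, what hg38 was for, and how multi-mapped reads were handled is not given in the sources used here. Although the labels mention 10x Genomics, the values are per gene and library, and they were treated as bulk. Depth was recovered from the FPKM steps of 105 short RNAs as the smallest total that made the 60 lowest values whole reads; 104 or 105 of the 105 were then whole within 0.02 in each library, and depth ran from 47900000 to 71700000 reads; this precision covers counting error only.

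FPKM are not counts, so limma 3.58.1 in R 4.3.3 was fitted to log2(FPKM + 1) for the 10289 genes that reached 1 FPKM in 2 or more libraries, all 83 members among them. The model had 4 group means over 8 libraries, a trend on mean level and 4 residual degrees of freedom; calls took the Benjamini-Hochberg adjusted p over all genes, with a threshold of 0.05. The pseudocount understates changes of low genes. The fit was tested on simulated data. Near-identical copies were found with BLAST 2.17.0 among GENCODE M21 transcripts. Members and gene lists were chosen with earlier results of these data known. The text names the 6 largest and smallest differences per comparison, the 5 highest and lowest levels, members with known roles and the 3 largest called differences per partner list, not all of which are printed. Alternatives changed the pseudocount, the filter, the scaling, the length trend, the spread, the groups fitted, the replicate block and each library in turn.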

Additional observations from a re-analysis of the deposited data

How the results depend on the processing

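Counts of called members depended on scaling, on the spread and on single libraries, and the cause was not tested. For LPS against untreated (38), quantile normalization gave 24, median-ratio size factors 61, a fit of the compared groups alone 72, and leaving out 1 library 4 to 71. For anti-CD36 against untreated (4), quantile normalization gave 1, leaving out mitochondrially encoded genes 7, no trend 9, the compared groups alone 0, and leaving out 1 library 0 to 67, with a median difference of -0.0458 to 0.83. For the combination against untreated 52 members were called, where 59.1% of all genes were called in either direction. Quantile normalization gave 28 (55.3% of all genes) and size factors 79 (57.2%). The compared groups alone gave 81, and the share of all genes in that fit was not set beside it. Against LPS (0) the compared groups alone gave 4. Against anti-CD36 (5), a mean FPKM of at least 5 gave 2, quantile normalization 3, size factors 19, leaving out mitochondrial genes 2, removing the length trend 19, no trend 8, the compared groups alone 2, and leaving out 1 library 0 to 70. For the interaction (0), leaving out 1 library gave 0 to 13, with a median of -0.67 to 0.18. Size factors moved the median of all genes with LPS to 0.01, against -0.19 as deposited. Under quantile normalization 74 of the 83 members, not 83, lay above 0 with LPS and with the combination.

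The correlation of same-numbered deviations between groups ran from -0.646 to 0.530. It was negative for anti-CD36 with untreated (-0.646), with the combination (-0.337) and with LPS (-0.176). For the combination with untreated it was 0.530, for LPS with untreated 0.209 and for LPS with the combination 0.005. Whether replicate numbers pair the samples was not tested. With the replicate block, 20 members were called with LPS and 1 with anti-CD36, all higher. In these fits 51.5% and 8.39% of all genes were called in either direction. For the combination against anti-CD36 the block gave 2, a count not set beside the share of all genes. A crossed replicate block, with the anti-CD36 numbers exchanged, was chosen after seeing the data. The crossed block gave 60 members with LPS and 12 with anti-CD36, all higher, where 60% and 18.7% of all genes were called in either direction. For the combination it gave 1 against LPS and 25 against anti-CD36, counts not set beside the share of all genes. A fit of 2 groups alone was not possible for the interaction.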
